A study of Mus musculus with 7 samples.

Results

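The chromosome 10 zinc-finger gene cluster was taken as all H3K9me3 peaks that start from 80000000 to 82999999 on mouse chromosome 10 (build mm9), an interval with Zfp781, Zfp873 and Zfp938 and the gene-rich sequence on either side. It held 207 of the 23190 WT peaks and 11 of the 3775 KO peaks. The interval was chosen by the peaks measured in these same 2 lists, so its peak numbers are a description and were not tested. The peak before the interval began at 79955489 (pileup 9) and the first inside at 81124152 (pileup 9), and the last inside began at 82927497 (pileup 12) and the next at 83137184 (pileup 9).

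H3K9me3, histone H3 trimethylated on lysine 9, was profiled by chromatin immunoprecipitation and sequencing in Setdb1 cKO iMEFs, which are immortalised mouse embryonic fibroblasts with conditional alleles of Setdb1. WT cells are these cells without treatment, and KO cells are the same cells given 4-hydroxytamoxifen (4OHT) for 4 days to delete Setdb1 and harvested on day 7. Both groups therefore carry the conditional alleles, and per the study's methods the line was recloned from single cells and picked for its response to 4OHT. Each group had 1 H3K9me3 library, so WT and KO could not be compared beyond the spread of replicates and p-values are not given, and the effects of 4OHT and of the deletion cannot be told apart. The series' other 5 libraries were not used here. Setdb1 itself is read out by neither list, so deletion was not checked here.

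Krüppel-type zinc-finger genes encode DNA-binding proteins whose fingers recognise particular DNA sequences, and in many of them a KRAB domain recruits Trim28, which in turn binds Setdb1, the enzyme that trimethylates H3K9 in euchromatin. The genes lie in tandem clusters that grew by duplication. The fingers of one protein are usually encoded in a single last exon, joined by a conserved linker of threonine, glycine, glutamate, lysine or arginine, and proline, and these exons are known to carry H3K9me3 themselves.

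Zinc-finger sequence was located from the genome alone, as 15-base matches to codons of that linker on either strand. An array is a run of at least 3 linkers on 1 strand with gaps of at most 500 bp, and a zinc-finger gene has at least 3 linkers in frame within 1 annotated coding exon. The genome held 588 arrays, and 19 of them lay in the interval. The stretches printed here, of NCBIM37 (mm9) and written in the direction of the zinc-finger sequence, show what the strongest WT peaks covered. The linkers are in capitals and a finger fills the lower-case bases between them. The first 5 come from the highest-scoring WT peak on the zinc-finger exon of each gene that had one.
Gm4767, chr10:81285068-81285235, plus strand: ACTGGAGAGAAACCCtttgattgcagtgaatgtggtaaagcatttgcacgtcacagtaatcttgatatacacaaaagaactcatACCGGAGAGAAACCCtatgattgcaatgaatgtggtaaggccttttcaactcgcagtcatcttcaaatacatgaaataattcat
AU041133, chr10:81613728-81613895, plus strand: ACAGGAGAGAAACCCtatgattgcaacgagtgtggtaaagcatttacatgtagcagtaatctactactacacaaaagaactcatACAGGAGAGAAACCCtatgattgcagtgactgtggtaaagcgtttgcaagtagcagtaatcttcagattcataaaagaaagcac
Zfp938, chr10:81687991-81688158, minus strand: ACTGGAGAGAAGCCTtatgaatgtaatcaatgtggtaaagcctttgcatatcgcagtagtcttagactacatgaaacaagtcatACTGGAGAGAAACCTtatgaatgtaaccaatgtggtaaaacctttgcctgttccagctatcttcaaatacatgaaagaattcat
Gm4924, chr10:81840078-81840245, plus strand: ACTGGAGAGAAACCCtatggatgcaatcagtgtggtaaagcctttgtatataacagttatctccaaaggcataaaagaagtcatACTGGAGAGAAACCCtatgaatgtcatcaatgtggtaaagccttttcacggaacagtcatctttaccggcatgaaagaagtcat
Zfp873, chr10:81522531-81522698, plus strand: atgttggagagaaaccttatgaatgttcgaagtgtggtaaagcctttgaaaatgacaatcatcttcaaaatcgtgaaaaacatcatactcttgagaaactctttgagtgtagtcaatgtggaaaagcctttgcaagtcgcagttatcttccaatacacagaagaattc

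The Gm4767, AU041133, Zfp938 and Gm4924 stretches each held 2 linkers. The Gm4924 stretch lies in the same array and peak as the annotated exon but before the annotated start of the gene. The Zfp873 stretch, at the end of the best-scoring peak of that exon, held 0 full linker matches and ends 3 bp before the first linker of its array. The next stretches show how alike the copies within the cluster are, since copies decide how far a peak can be placed. They are from the peak over Gm3055, the peak over Zfp781 and the peak over another such array that overlaps no annotated gene, followed by the highest-scoring WT peak of the interval.
Gm3055, chr10:81208876-81209043, minus strand: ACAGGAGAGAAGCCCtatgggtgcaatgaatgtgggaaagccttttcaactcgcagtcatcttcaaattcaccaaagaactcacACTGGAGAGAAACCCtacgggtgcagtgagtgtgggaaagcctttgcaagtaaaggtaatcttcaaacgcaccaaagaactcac
Zfp781, chr10:81367966-81368133, minus strand: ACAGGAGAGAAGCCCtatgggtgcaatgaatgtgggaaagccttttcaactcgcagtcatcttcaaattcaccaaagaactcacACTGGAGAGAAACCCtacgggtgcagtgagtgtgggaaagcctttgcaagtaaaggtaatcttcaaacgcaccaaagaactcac
Unannotated copy, chr10:81571761-81571928, plus strand: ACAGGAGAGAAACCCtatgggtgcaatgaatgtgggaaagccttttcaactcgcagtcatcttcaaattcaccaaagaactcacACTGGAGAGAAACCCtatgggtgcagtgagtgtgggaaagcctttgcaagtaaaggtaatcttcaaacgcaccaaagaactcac
Highest-scoring peak, chr10:81319395-81319562, plus strand: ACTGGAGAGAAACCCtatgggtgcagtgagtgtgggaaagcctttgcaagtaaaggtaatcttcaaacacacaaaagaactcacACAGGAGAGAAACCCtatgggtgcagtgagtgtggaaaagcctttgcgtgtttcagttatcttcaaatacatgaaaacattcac

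Over these 168 bases the Gm3055 and Zfp781 copies differed at 0 bases, and the unannotated copy differed from either at 2.

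WT peaks filled the middle of the interval, apart from 3 peaks near its far end. Between 81124152 and 82073143, a stretch of 949 kb, stood 204 of the 207 WT peaks and 11 of the 11 KO peaks. That is 215 WT peaks per Mb, against 8.67 per Mb over the rest of the sequenced chromosomes. The first 11 bins of 100 kb held 0 peaks in either list. They end before the first WT peak, as do 66 protein-coding genes, so a WT count of 0 there follows from that bound. Those genes include Dot1l, the H3K79 methyltransferase, Eef2, a translation elongation factor, and Gna11, a G-protein subunit. Of the 12 protein-coding genes that start after the stretch, among them the DNA glycosylase gene Tdg and the thioredoxin reductase gene Txnrd1, none overlapped a peak of either list. Of the 14 protein-coding genes within the stretch, 10 overlapped a WT peak and 0 a KO peak. Over the genome 9.05% of protein-coding genes overlapped a WT peak and 2.32% a KO peak, but the stretch was bounded by WT peaks, so the share of its genes with one is partly set by that choice.

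**Figure D1:**
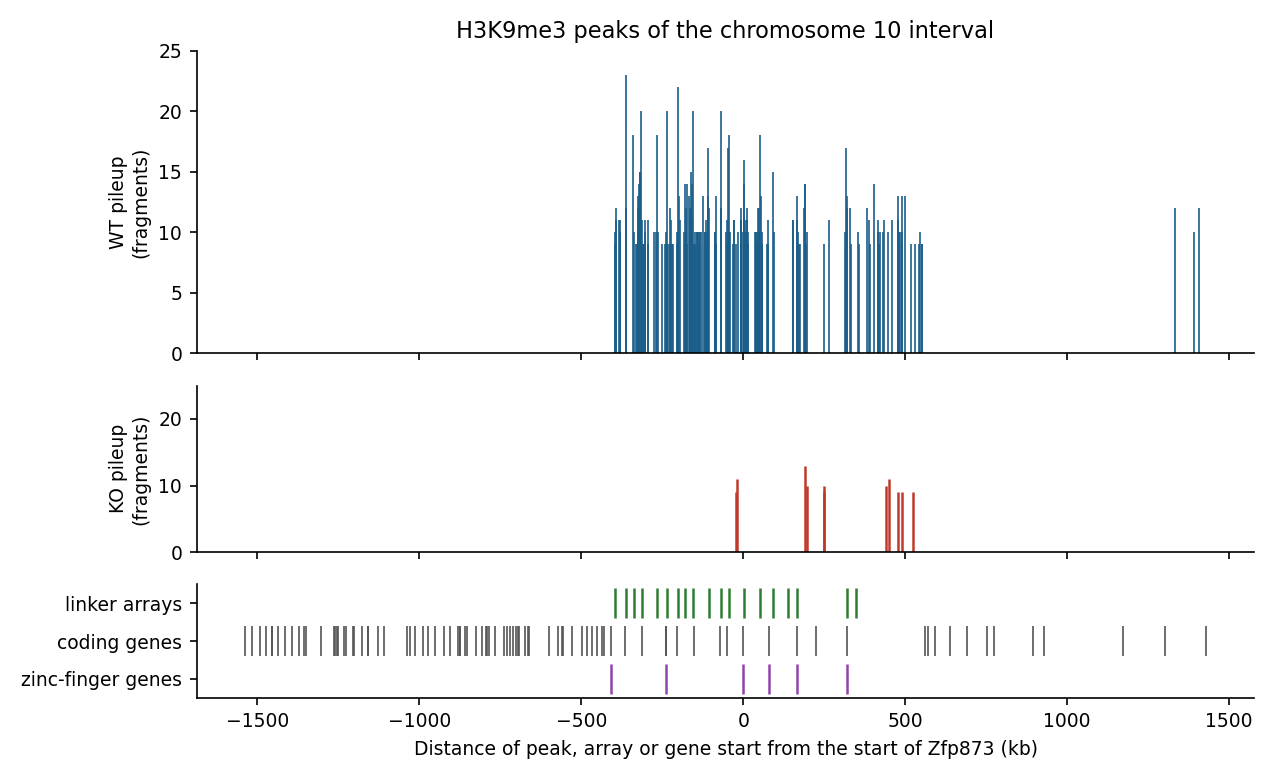
Vertical lines mark the WT peaks (top) and KO peaks (middle) by the distance of their start from the start of Zfp873 in kb, with a height equal to the pileup in fragments. The lower rows mark starts of linker arrays, protein-coding genes and zinc-finger genes. The WT peaks fill the part with arrays, and the gene-dense sequence to the left holds none.

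Within the stretch neighbouring WT peaks lay a median of 1007 bp apart, and 100 of the 203 gaps were under 1 kb. The longest run, in which no gap exceeded 10 kb, held 42 peaks over 77.1 kb (81338886 to 81415954) and takes in Zfp781. By 100 kb, the count rose from 18 peaks in the first bin of the stretch to 34 in the second and 40 in the third, was 28 and 32 in the next pair, and was between 8 and 14 in each of the 5 bins that followed. WT peaks covered 95.6 kb of the interval, 10.0% of the stretch. Peaks were wider here than elsewhere, with a median width of 240 bp (lowest 70, highest 4338) against 135 bp outside the interval, while the median pileup, the number of overlapping fragments at the summit, was 10 in both. Of the interval's WT peaks, 23 of 207 were wider than 1 kb (11.1%, 95% Wilson interval 7.52 to 16.1), against 338 of 22983 outside (1.47%, 1.32 to 1.63). Of the 23, 15 lay on arrays, many of which are near-identical copies, so they are not independent and the Wilson interval covers counting error only. The median local background, in fragments as the caller set it, was 1.31 in the interval and 1.2 outside.

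The 5 peaks with the highest scores, the score being −log10 of the caller's q-value, all lay on arrays. The first, chr10:81318777-81320905, had 22 fragments at its summit, 9.94 times the local background, and a score of 14.8, and lies over an array of 3 linkers in no annotated gene. The peak chr10:81365318-81369655 over the array at Zfp781 was the widest of the interval at 4338 bp, with a pileup of 20 and a score of 11.9. It covered 17 linkers. The peak chr10:81451751-81454317 had a pileup of 20 and a score of 11.6. The peak chr10:81206214-81209806, over Gm3055 and 3593 bp wide, had a pileup of 20 and a score of 10.1. The fifth, chr10:81159462-81162152, had the highest pileup of the interval, 23, but also a local background of 2.63 and so a lower score of 9.85.

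H3K9me3 was called over most zinc-finger arrays of the cluster in WT and over none in KO. Of the 19 arrays, 16 had a WT peak (84.2%, 95% Wilson interval 62.4 to 94.5), and 0 had a KO peak, which allows a share of up to 15.8%. Across the genome 39.5% of the 588 arrays had a WT peak and 2.55% a KO peak, so a KO share of 0 among 19 arrays is near the background. Of the 199 linkers in the interval, 163 lay under a WT peak (81.9%) and 0 under a KO peak. Outside the interval 1484 of 8703 linkers lay under a WT peak (17.1%) and 24 under a KO peak (0.276%). The interval was chosen by its peaks in these same lists, so its high WT shares of arrays and linkers are partly set by that choice. The Wilson intervals cover counting error only, and arrays that are copies of one another are not independent.

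Only 20 of the 207 WT peaks lay on an array, and they were on the whole wider and higher than the others. Their median width was 1830 bp (381 to 4338) against 209 bp (70 to 2393) for the other 187, and their median pileup 17.5 fragments (9 to 23) against 10 (9 to 16). They made up 38.3 kb, 40.0% of the WT covered length. Of the 18 WT peaks with a pileup of at least 15, 14 were on an array, and 13 array peaks stood above the highest pileup off arrays. The ranges overlapped, since 15 of the 23 peaks wider than 1 kb, and not all of them, were on arrays and the lowest array peak had the lowest pileup called, 9. Of the 10 highest-scoring peaks 10 were on an array. Outside the interval 344 of 22983 WT peaks were on an array (1.5%), with a median width of 491 bp and a median pileup of 12. In the 3 Mb of chromosome 4 with most zinc-finger genes, 25 array peaks had a median width of 1639 bp and a higher median pileup of 23, at a median local background of 2.63. In the 3 Mb of chromosome 13 with most such genes, 57 array peaks had 257 bp and 14. Local background moved in the same direction, with a median of 1.47 on arrays and 1.31 off arrays in the interval, and its part in these values was not tested.

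**Figure D2:**
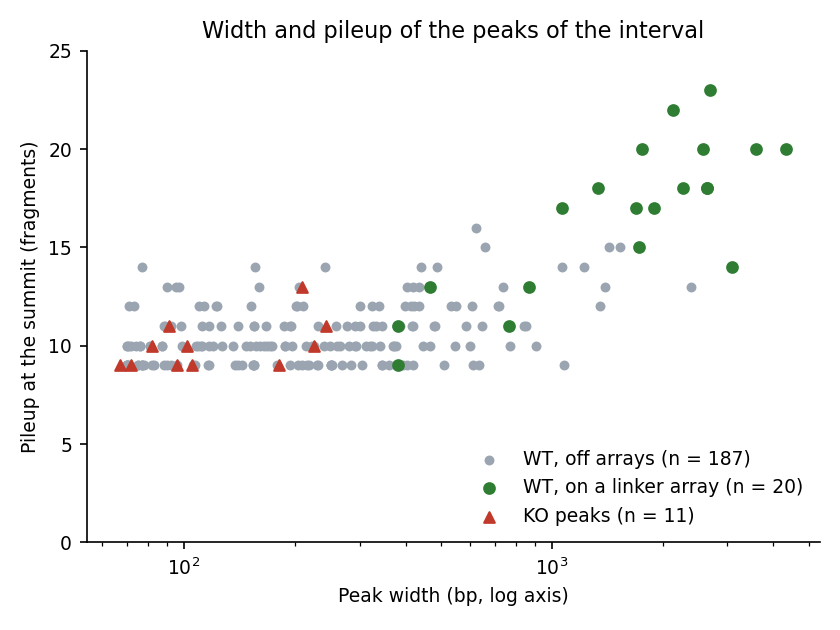
Each point is a peak of the interval, by its width in bp (log axis) and its pileup in fragments. The 20 WT peaks on linker arrays (green) fill the upper right, the 187 other WT peaks (grey) reach a pileup of 16, and the 11 KO peaks (red triangles) are at most 243 bp wide with pileups of 9 to 13.

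The WT peaks framed the zinc-finger run. In the 16 arrays with a peak, a median of 100% of the bases from first to last linker were covered (64.1 to 100%), and peaks reached a median of 726 bp upstream of the first linker and 530 bp past the last. At the first linker itself 15 of 19 arrays were under a WT peak, and 16 were at 500 bp and at 1000 bp downstream of it, positions that lie past the last linker in the shorter arrays. At 2 kb upstream 2 arrays were under a peak and at 2 kb downstream 5.

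**Figure D3:**
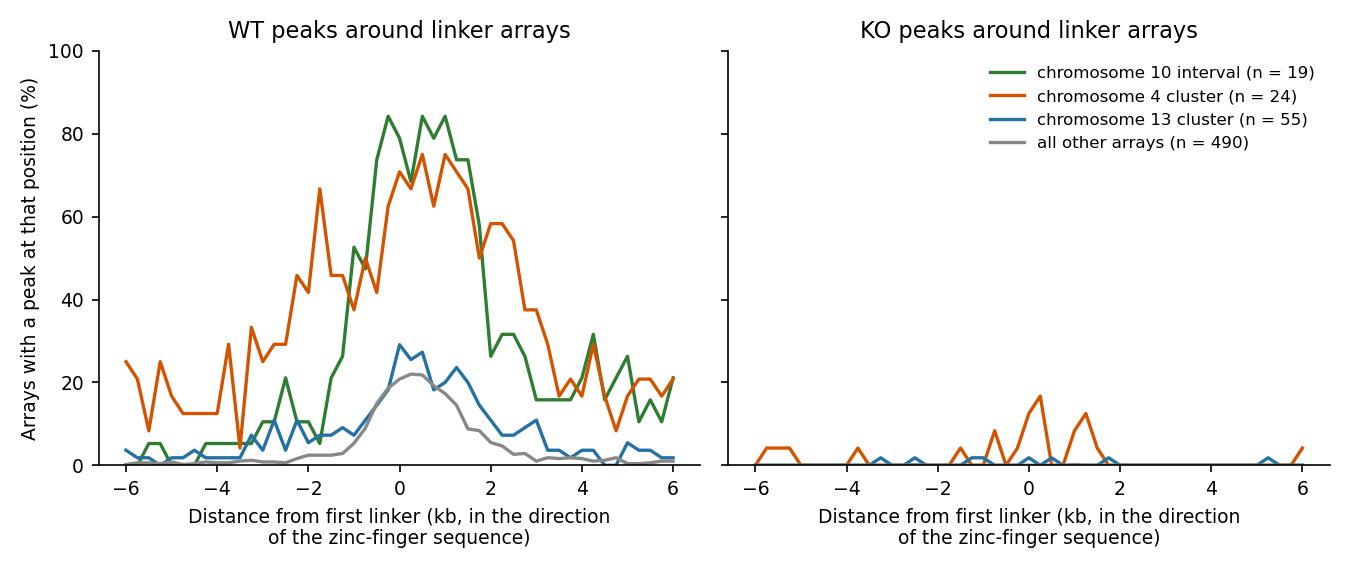
The y axis is the percentage of linker arrays under a WT peak (left) or KO peak (right) at each distance from the first linker in kb, read in the direction of the zinc-finger sequence. In WT the interval's 19 arrays reach 84.2% at 500 bp and fall to 26.3% at 2 kb. In KO the interval's line stays at 0, while the chromosome 4 line rises above it near the array.

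The arrays fall into families of near-identical copies. The most frequent distance between repeated 31-base words of the stretch was from 159.0 to 159.5 kb, and several arrays recur at that spacing. Arrays of 17 linkers begin at 81207349 (Gm3055) and 81366439 (Zfp781), 159.1 kb apart, and differ at 2 of 1695 bases, and another begins at 81571761 on the opposite strand with 12 differences from either. Their highest peaks had pileups of 20, 20 and 18. Arrays of 12 linkers begin at 81182963, 81342073 and 81475563, and their highest peaks had pileups of 18, 14 and 18. The first and second of these differ at 2 of 1471 bases, and the third by 130 and 131 from the others. Arrays of 3 linkers begin at 81160293, 81319395 and 81452510, with identical sequence over 267 bases. Their pileups were 23, 22 and 20.

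Identical sequence did not always have a peak. Arrays of 10 linkers begin at 81125939 (Gm10778), 81254873, 81285068 (Gm4767) and 81414222, and differ from one another at 0 to 3 of 1093 bases. The last 3 had WT peaks with pileups of 18, 20 and 17 that each covered 9 of 10 linkers. The first, in the Gm10778 exon and identical to that of Gm4767, had 0 peaks, and its nearest WT peak lay 89 bp away. The authors placed a read that maps to several sites at 1 of them at random, so peaks in these copies cannot be assigned to 1 copy.

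Sequence that occurs once in the genome carried the mark as well. A copy number was given to each peak or array as the median number of times its 31-base words occur in the genome. Of the 19 arrays 5 had a copy number of 1, and 3 of these had a WT peak, those of Zfp873, AU041133 and Zfp938. They had 22 of 34 linkers under WT peaks (64.7%), and their best peaks had pileups of 11, 15 and 13. The other 14 arrays had 135 of 150 linkers under WT peaks (90.0%) with a median best pileup of 18. The single-copy arrays without a WT peak had 3 linkers each, beginning at 81660564 in the noncoding gene Gm15608 and at 81869167. Of all 55 single-copy WT peaks, the 6 on an array had a median width of 814 bp and a median pileup of 12, and the other 49 had 251 bp and 10.

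All 6 zinc-finger genes of the interval overlapped a WT peak and 0 overlapped a KO peak, where 33% of the 327 such genes in the genome overlapped a WT peak and 4.59% a KO peak. The interval was chosen for its WT peaks, so a high WT share of its genes is partly set by that choice, and 0 of 6 in KO is near the background. In 5 of the 6 the WT peak lay on the zinc-finger exon. The proteins of these genes are predicted DNA-binding zinc-finger proteins. Altogether 17 of the 207 WT peaks lay in these genes (8.21%) and 10 on their zinc-finger exons (4.83%).

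Zfp873 (81521162 to 81524074, plus strand, 12 linkers) had 4 WT peaks, each on its zinc-finger exon and each in single-copy sequence. From the 5′ end they had pileups of 16, 11, 9 and 14 fragments and widths of 621, 382, 381 and 488 bp. The higher pair flanked the linkers, and the lower pair covered 8 of the 12. Of the 5 genes with a peak on the zinc-finger exon, Zfp873 was the only one whose highest peak held 0 linkers.

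Zfp938 (81687595 to 81704025, minus strand, 7 linkers) had 5 WT peaks. The pair over its array had pileups of 13 and 11 and covered 5 linkers, and the other 3 lay further upstream in the gene with pileups of 10, 9 and 9. AU041133 (81600998 to 81614756, plus strand, 9 linkers) had 1 WT peak of 1727 bp at the end of the gene, with a pileup of 15, and it covered 9 of 9 linkers. Gm4924 (81841338 to 81843982, plus strand, 5 linkers in its annotated exon) had 3 WT peaks, with pileups of 17, 13 and 12. The array it belongs to begins 1260 bp before the annotated start, has 14 linkers, and had 13 of them under WT peaks.

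Gm4767 (81283872 to 81286105, plus strand, 9 linkers in frame) had 2 WT peaks with pileups of 9 and 20, the second over its fingers. Gm10778 (81111816 to 81126976, plus strand, 9 linkers in frame) had 2 WT peaks with pileups of 9 and 10, both upstream of its zinc-finger exon.

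Zfp781 (81367818 to 81373644, minus strand) did not meet the definition of a zinc-finger gene, because its annotated reading frame held 0 linkers, although 4 linkers lie in its coding exons in another frame and its array runs on beyond the annotated end. It had 4 WT peaks, with pileups of 20, 9, 10 and 9. The same holds for Gm3055 (81208728 to 81214554, minus strand), whose array is near-identical, with 5 WT peaks and pileups of 20, 11, 9, 9 and 9. The high peak covered the array in each and the low ones lay upstream. The other coding genes with WT peaks were the short predicted genes Gm8264 and Gm8137, with 1 peak each and pileups of 10 and 10. In total 28 WT peaks lay in protein-coding genes and 179 in no annotated gene.

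Gene starts were looked at apart from gene bodies. In the window from 2 kb upstream to 0.5 kb downstream of the start, 3 of the 6 zinc-finger genes had a WT peak (Gm4767, Zfp873 and Gm4924), and 9 of all 92 protein-coding genes of the interval did. Of the same 92 starts 0 had a KO peak. The Gm4924 window takes in most of its linker array, which begins 1260 bp before the annotated start, so WT peaks over its fingers count there. Over the genome 1.47% of protein-coding gene starts had a WT peak and 0.433% a KO peak, so a KO count of 0 is near the background, and the WT count comes from an interval chosen for its WT peaks.

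Much of the WT signal lay off the arrays, in sequence between the genes. Of the 207 WT peaks, 85 lay within 5 kb of an array and 122 within 10 kb, with a median distance of 7.88 kb. Single-copy sequence held 26.6% of the WT peaks of the interval and 28.5% of those outside. Sequence with over 1 to 10 copies held 51.2% of the interval's and 15% of the others. Sequence with over 1000 copies, the class of the most abundant repeats, held 7.73% of the interval's and 35.8% of the others. Of all 31-base words of the stretch, 36.3% had over 1 to 10 copies and 7.41% had over 1000, so the 7.73% is near the local share. Copies within the interval were common. By the median count of their 31-base words, 128 of the 207 peaks had over 1 copy within the interval. For 88 of the 207 (42.5%) the median count in the genome equalled that in the interval. In the stretch itself 43.3% of the 31-base words were repeated within the interval, against 3.37% in the rest of the interval, and 47.1% occurred once in the genome.

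In KO far fewer peaks than in WT were called in the cluster. The KO list had 5.31% as many peaks as the WT list in the interval and 16.4% as many outside it. The interval was chosen for its WT peaks, so a low ratio is partly set by that choice. The value for the interval was 12.7% in single-copy sequence (7 KO against 55 WT peaks). Single-copy sequence outside the interval held 2141 KO against 6543 WT peaks, so the 12.7% is not to be set against the 16.4%. After peaks within 1 kb were merged the interval's value was 10.4%, and no merged value was computed outside it. By length KO peaks were not sparse here. The stretch of 949 kb held all 11, while the whole KO list had 3775 peaks and the chromosomes with WT peaks span 2655 Mb. The 3 Mb before the interval held 19 KO peaks and the 3 Mb after it 4. KO peaks covered 1.47 kb, 1.54% of the WT length, and were at most 243 bp wide. Of the 207 WT peaks 1 shared a base with a KO peak (0.483%, 95% Wilson interval 0.0853 to 2.69), and 2.42% of all WT peaks did. Of the 11 KO peaks 1 shared a base with a WT peak (9.09%, 1.62 to 37.7), and 16.1% of all KO peaks did. Both shares are within counting error of the background.

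The shared site was at 81712053 to 81712491, in no gene. The KO peak chr10:81712053-81712261 lay 23475 bp from the nearest array and had 13 fragments at its summit, 6.42 times the local background. Its score of 6.37 was the highest of the 11. The WT peak chr10:81712159-81712491 had 11 fragments at its summit, 4.09 times the local background, and a score of 2.5. Its background was 1.93, above the interval's median of 1.31. The KO peak's own background was 1.18. The 103 bases that both peaks cover held 0 linkers and are shown because they are the only sequence of the interval called in both lists.
Shared bases, chr10:81712159-81712261, plus strand: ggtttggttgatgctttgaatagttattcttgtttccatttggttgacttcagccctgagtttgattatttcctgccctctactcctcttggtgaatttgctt

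The other 10 KO peaks touched no WT peak. In order along the chromosome the 11 began at 81498823 (pileup 9), 81500705 (11), 81712053 (13), 81717978 (10), 81769513 (9), 81771410 (10), 81963160 (10), 81971911 (11), 81999724 (9), 82010614 (9) and 82043991 (9). Their median distance to a WT peak was 1317 bp and the largest 5124 bp, and 4 of the 11 lay within 1 kb of one. The stretch held 204 WT peaks in 949 kb, so short distances follow in part from that density. None lay in a gene, but neither did 179 of the interval's 207 WT peaks. The KO peak nearest to an array was 21.8 kb away. The positions of the KO peaks did not follow the density of the WT peaks. Among the 152 WT peaks of the first 5 bins of 100 kb, with 14 arrays, stood 2 of them. The other 9 stood among the 52 WT peaks of the next 5 bins, with 5 arrays. By copy number, 7 of the 11 were in single-copy sequence (63.6%), and so were 56.9% of the KO peaks outside the interval.

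The cluster was set beside 2 others of the same kind, the 3 Mb on chromosome 4 (from 145000000 to 147999999) and on chromosome 13 (from 65000000 to 67999999) in which most zinc-finger genes start, 16 and 22 against 6 here. In WT, 21 of 24 chromosome 4 arrays had a peak (87.5%, 95% Wilson interval 69.0 to 95.7), close to the chromosome 10 share of 84.2%. On chromosome 13, 31 of 55 did (56.4%, 43.3 to 68.6). In KO, 10 of 24 arrays on chromosome 4 had a peak (41.7%, 24.5 to 61.2), 4 of 55 on chromosome 13 (7.27%, 2.86 to 17.3) and 0 of 19 on chromosome 10 (upper Wilson bound 16.8%). Over all arrays outside the interval 15 of 569 had a KO peak (2.64%), and these include the 10 on chromosome 4 and the 4 on chromosome 13. The 0 on chromosome 10 is thus near the share of arrays in general, and chromosome 4 is the one that stands apart. These shares describe 1 library per group, many of the arrays are near-identical copies, and the difference between clusters was not tested.

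**Figure D4:**
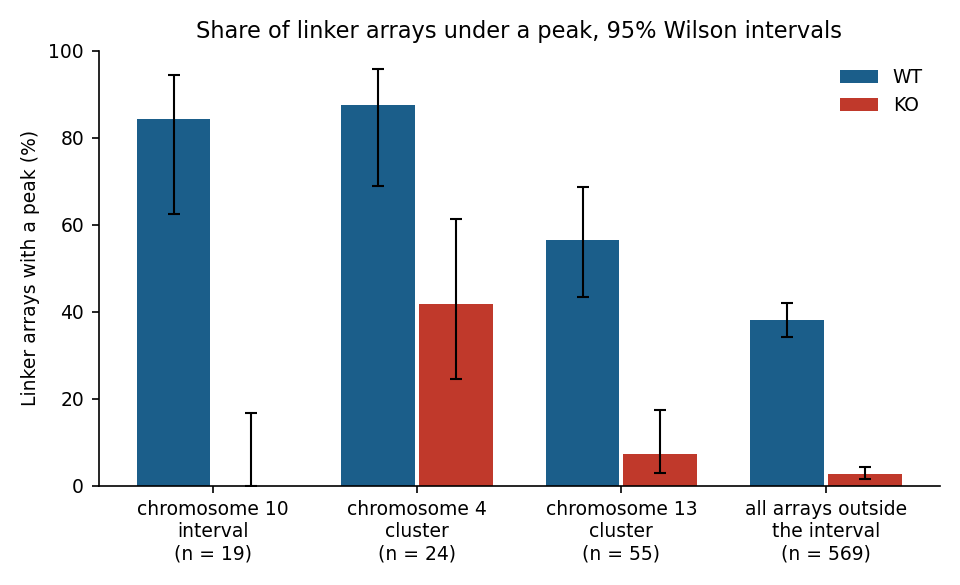
Bars give the percentage of linker arrays with at least 1 WT peak (blue) or KO peak (red), and the lines 95% Wilson intervals for counting error only. The chromosome 10 interval and the chromosome 4 cluster have overlapping intervals in WT (84.2% and 87.5%) but stand at 0 and 41.7% in KO. All arrays outside the interval stand at 2.64% in KO, near the 0 of chromosome 10.

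Over all peaks, with no filter on copy number and no merging, the KO list had 5.31% as many peaks as the WT list on chromosome 10, 25.6% on chromosome 4 (114 against 445) and 10.9% on chromosome 13 (37 against 340). WT peaks that met a KO peak made up 0.483%, 8.76% and 3.24%. Local background differed as well: its median over WT peaks was 1.31 on chromosome 10, 1.84 on chromosome 4 and 1.31 on chromosome 13, and over KO peaks 1.18, 1.59 and 1.18. The median copy number of array peaks was 3 on chromosome 10, 5 on chromosome 4 and 8 on chromosome 13. The part of background and copy number in these differences was not tested.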

How the data were processed

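Native chromatin of the iMEFs was digested with micrococcal nuclease and precipitated with a polyclonal H3K9me3 antibody. Single-end reads were aligned by the authors (mm9, Bowtie2 2.2.3). They placed multi-hit reads at random, removed duplicates and called peaks with MACS2 2.1.0.20140616, 1 list per library. The deposited pileup is signal in fragments at the summit (lowest 9). The deposited fold enrichment is a ratio to local background, and the other deposited columns used hold −log10 p-values and q-values of single peaks, which served to rank peaks within a list. Local background was (pileup + 1) / fold − 1. Read totals are not in the lists. The paper's methods give a range of read numbers for the iMEF ChIP-seq data, but no total for each library. The lowest background was 1.16 in WT and 1.07 in KO. Whether starts count from 0 or 1 is not stated, so positions carry 1 bp of uncertainty.

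Peaks were intersected (at least 1 bp) with GENCODE M1 genes on NCBIM37, the same build, and with linkers found in its sequence. Copy number was the median genome count of a peak's 31-mers, both strands. Shares carry 95% Wilson intervals, and a share of 0 allows 3 counts. The interval and lists were chosen with earlier results of these data known. Named were all zinc-finger genes with a peak, Zfp781, Zfp873 and Zfp938, up to 10 other coding genes with most WT peaks, the 5 highest-scoring WT peaks, and all KO peaks. Flanking genes, arrays and their copies were named after their values were seen. Alternatives covered the peak threshold, copy number, interval, merging, overlap and the definition of zinc-finger genes and arrays. Interval code was tested on 5000 simulated peaks and found 200 of 200 planted overlaps. Software was pandas 2.3.3, numpy 2.4.6, numba 0.67.0 and scipy 1.17.1 under Python 3.11.15, with plots from matplotlib 3.10.9.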

Additional observations from a re-analysis of the deposited data

How the results depend on the processing

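Of 69 alternative values for 13 results, 37 stayed within 1.5 times of a count or within the counting interval of a share. With scores at or above the WT median, 127 WT and 5 KO peaks were left, KO peaks covered 0.87 kb and 0% of peaks overlapped in either direction. With a pileup of at least 15, 18 WT peaks over 36.6 kb and 0 KO peaks over 0 kb were left, a KO to WT number of 0% with 0% of WT peaks retained, and 22.2% of WT peaks lay in zinc-finger genes and 22.2% on their zinc-finger exons. No share of KO peaks on a WT peak could be computed there. In single-copy sequence, 55 WT peaks (21.1 kb) and 7 KO peaks were left (KO to WT 12.7%), 0% overlapped in either direction, and 21.8% of WT peaks lay in zinc-finger genes and 14.55% on their exons. Merging within 1 kb gave 106 WT peaks and a KO to WT number of 10.4%. Requiring 50% overlap left 0% in both directions, and allowing 1 kb gave 3.38% of WT peaks near a KO peak. Only 3 genes with a WT peak have a symbol starting with Zfp.

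Alternatives for arrays were chosen after seeing the data. The share of linkers under a WT peak, 81.9%, became 87.6% in arrays of at least 5 linkers, 88.5% with linkers at most 200 bp apart, 64.7% in single-copy arrays and 67.3% with a pileup of at least 15. Of the single-copy arrays 60% had a WT peak. The share of arrays with a KO peak was 0% in each of these. KO pileups of 9 to 13 are near the lowest called, 9. No paired analysis was possible because a group had only 1 library and no result comes from a test.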
